A study of Mus musculus with 2 samples.

Results

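Genes for matrix metalloproteinases (MMP), their tissue inhibitors (TIMP), ADAMTS proteases, ADAMTS-like proteins (ADAMTSL) and lysyl oxidases (LOX) were compared between MALAT1-knockdown and control C3H10 cells induced to become adipocytes. The comparison asks which of these genes differ when MALAT1, a long noncoding RNA of the nucleus, is depleted before differentiation. Members were chosen by symbol alone: Mmp, Timp, Adamts or Adamtsl followed by a number, plus Lox and Loxl1 to Loxl4. Of 46095 genes in the count table, 56 carried such a symbol, and 41 of them reached 10 counts in the sum of the libraries. These 41 comprised 14 of 23 MMP genes, 4 of 4 TIMP genes, 14 of 19 ADAMTS genes, 4 of 5 ADAMTSL genes and 5 of 5 lysyl oxidase genes. The symbol rule used no measured difference, though the members were chosen with earlier results of these data known.

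The RNA came from C3H10 cells, a mouse mesenchymal line labelled as strain C57BL/6 and described as fibroblast precursors able to form fat cells. In the control group they received the negative control antisense oligonucleotide (ASO NC) and in the knockdown group an ASO against MALAT1, both at 100 nM, before confluence. All cells were then induced with isobutyl-1-methylxanthine, dexamethasone, troglitazone and insulin, kept in insulin, and harvested at day 6 of differentiation. Each group was 1 library made from total RNA without rRNA, and which of the MALAT1 ASOs was sequenced is not named in the sources used here. With no replicate, no difference below has a replicate check: the test compares the reads of these libraries, not the conditions, and its intervals cover counting error only.

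Summed counts came to 58147539 in the control and 61653549 in the knockdown library, and 0 counts allow up to 3 counts, which is 0.0520 CPM (counts scaled to library size) in control and 0.0483 CPM in knockdown. Malat1 itself was counted 170402 times in control and 45396 times in knockdown cells, 24.7% of the control level. Both cultures carried markers of fat cells and of fibroblasts. In bulk RNA, fewer cells of a type and less RNA per cell cannot be told apart.

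The matrix around fibroblasts and fat cells is built and remodelled by these families. MMPs are zinc-dependent proteases that cut collagens and other matrix proteins. They are made as inactive precursors, and TIMPs block the active enzymes. ADAMTS proteases cut proteoglycans or trim procollagens, ADAMTSL proteins share their non-catalytic domains and lack protease activity, and lysyl oxidases cross-link collagen and elastin. Preadipocytes remodel their collagen-rich surroundings as they round up and fill with lipid, and MMP14, also called MT1-MMP, is the membrane collagenase best known for this role.

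Differences between the libraries were small in most members. Those that passed the test and differed by at least 1.5-fold were Timp4, Adamts12 and Mmp23, all lower in knockdown cells, and their share of the members was close to that over all genes. For each gene, counts were scaled by the TMM factors of edgeR and compared by a two-sided exact binomial test, adjusted after Benjamini and Hochberg over 17356 genes, and the log2 fold change (log2FC) is given as knockdown over control. Paired values are given with control first. At an adjusted p under 0.05 without a fold threshold, 17 of the 41 members were higher in knockdown cells, where 24.6% of all genes tested were higher, and 7 were lower, where 24.1% of all genes were lower. At 1.5-fold or more, 3 members (7.32%) were lower and 0 higher, against 7.45% and 4.68% of all genes. At 2-fold or more, 0 members were called lower and 0 higher, against 4.24% and 2.45% of all genes. The median log2 fold change was 0.07 over the members and -0.0031 over all genes tested. Counting error is small where the libraries average at least 1000 counts, a class of 8251 genes with 24 members. Of these, 15 were higher and 6 lower, while 35.3% of the genes in that class were higher and 30.2% lower. In the same class 2 members were at least 1.5-fold lower, against 2.84% of the genes.

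**Figure D1:**
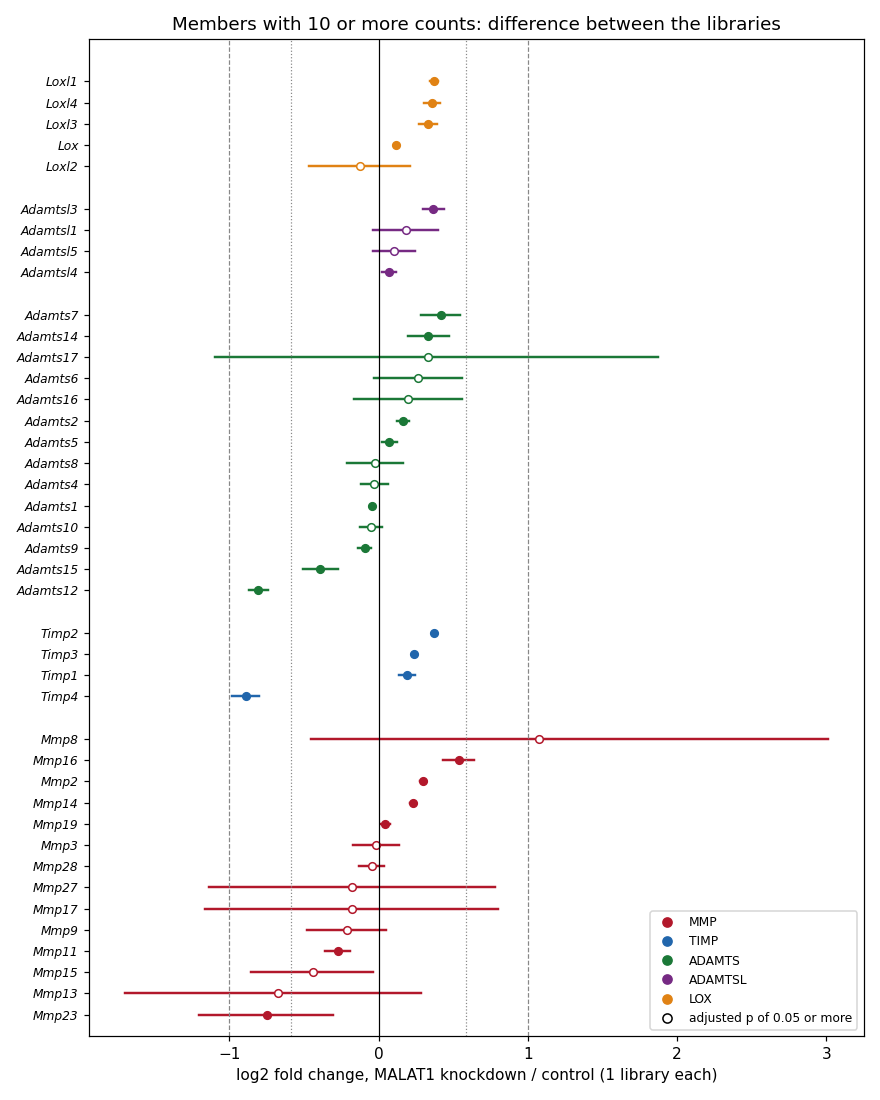
Log2 fold change of the 41 members (x axis) between 1 MALAT1-knockdown and 1 control library, with lines for 95% Clopper-Pearson intervals, which cover counting error only. Filled points have an adjusted p under 0.05, dotted lines mark 1.5-fold and dashed lines 2-fold; Timp4, Adamts12 and Mmp23 are the filled points beyond the dotted line, all on the lower side.

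Among the inhibitors, Timp4 stood on the other side of 0 from Timp1, Timp2 and Timp3. Timp4 was counted 2748 times in control and 1594 times in knockdown cells. It fell to 53.9% of the control level (log2FC -0.89, 95% interval -0.98 to -0.80, adjusted p = 1.22e-87, exact binomial test). Timp2, an inhibitor that also helps MMP14 to activate the MMP2 precursor, was counted 68990 times in control and 95956 times in knockdown cells. Its log2FC of 0.37 (95% interval 0.36 to 0.38) was the highest of the 4 inhibitors. Timp3, which binds the matrix and also blocks several ADAM and ADAMTS proteases, went from 59261 to 75154 counts (log2FC 0.24, 95% interval 0.22 to 0.25). Timp1, a secreted inhibitor, went from 5038 to 6176 counts (log2FC 0.19, 95% interval 0.13 to 0.24). None of these 4 intervals includes 0, and the interval of Timp4 does not overlap those of the other 3. Intervals without 0 are common at this depth. Of 8251 genes averaging at least 1000 counts, as these 4 do, 3076 had intervals above 0 and 2623 below it.

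Timp4 was the least counted member of its family. Its share of the TIMP counts, which does not depend on library scaling, was 2.02% in control cells (exact 95% interval 1.95 to 2.10) and 0.891% in knockdown cells (0.848 to 0.936). Timp2 made up 50.7% of the TIMP counts in control and 53.6% in knockdown cells. All 4 genes together had 2357 CPM in control cells and 2879 CPM in knockdown cells (log2FC 0.29). Per kilobase of exon, Timp2 stood at 307 scaled CPM in control cells, Timp3 at 126, Timp1 at 98.3 and Timp4 at 8.08. In knockdown cells these levels were 396, 149, 112 and 4.35 in the same order.

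Timp1, Timp3 and Timp4 lie inside synapsin genes on the opposite strand, and although the library kit marks strand, the counting is not stated to use it. In GENCODE M21 (GRCm38), Timp4 spans bases 115241892 to 115252205 of chromosome 6, minus strand, within Syn2. The genes share 90 exon bases, 1.53% of the Timp4 exons. Syn2, a synapsin gene best known from neurons, went from 2933 to 1768 counts (log2FC -0.84, 95% interval -0.92 to -0.75), which overlaps the interval of Timp4. How far reads of Syn2 and Timp4 were shared was not tested. The neighbouring gene is Pparg, the master regulator of fat cell formation, with 11816 and 8552 counts (log2FC -0.57, 95% interval -0.61 to -0.53). Syn3 shares 1733 exon bases with Timp3, 21.3% of its exons, yet held only 36 and 48 counts. Syn1, around Timp1, shares 0 exon bases with it and held 40 and 80 counts.

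Promoter sequence is shown for the abundant members that were at least 1.5-fold lower, Timp4 and Adamts12, and beside them for Timp1 and Mmp14, which were higher. Timp1 and Mmp14 were picked by hand. Timp2, Timp3 and Loxl4, also higher, had entries that are not printed. RefSeq promoter entries (GRCm38.p6) existed for 23 of the 41 members. The 250 bases before the start are printed 5′ to 3′ on the gene's strand, and capitals mark any match to 7 motifs searched on both strands. These were AP-1 (TGANTCA), SP1 (GGGCGG), the TATA box (TATAAA), the CCAAT box (CCAAT), the E-box (CACGTG), C/EBP (TTNNGNAA) and the DR1 element bound by PPARs, searched as a perfect repeat with 1 free base between its repeats. The Timp4 window is chr6:115252206-115252455, minus strand, the Adamts12 window chr15:11064523-11064772, plus strand, the Timp1 window chrX:20869916-20870165, plus strand, and the Mmp14 window chr14:54431348-54431597, plus strand.
Timp4: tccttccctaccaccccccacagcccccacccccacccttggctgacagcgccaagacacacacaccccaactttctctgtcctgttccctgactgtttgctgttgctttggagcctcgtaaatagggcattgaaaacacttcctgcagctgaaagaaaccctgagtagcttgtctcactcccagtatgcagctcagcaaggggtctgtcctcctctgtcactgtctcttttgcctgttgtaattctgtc
Adamts12: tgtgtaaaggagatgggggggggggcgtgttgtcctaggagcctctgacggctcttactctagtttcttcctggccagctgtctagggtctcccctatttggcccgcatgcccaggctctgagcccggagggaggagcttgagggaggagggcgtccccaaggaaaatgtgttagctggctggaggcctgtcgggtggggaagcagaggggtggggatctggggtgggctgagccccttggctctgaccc
Timp1: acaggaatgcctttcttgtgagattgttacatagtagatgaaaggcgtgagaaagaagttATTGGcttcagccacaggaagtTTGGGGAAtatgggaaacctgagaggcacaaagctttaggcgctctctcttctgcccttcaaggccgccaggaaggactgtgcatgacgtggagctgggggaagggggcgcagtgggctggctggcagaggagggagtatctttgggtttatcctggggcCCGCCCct
Mmp14: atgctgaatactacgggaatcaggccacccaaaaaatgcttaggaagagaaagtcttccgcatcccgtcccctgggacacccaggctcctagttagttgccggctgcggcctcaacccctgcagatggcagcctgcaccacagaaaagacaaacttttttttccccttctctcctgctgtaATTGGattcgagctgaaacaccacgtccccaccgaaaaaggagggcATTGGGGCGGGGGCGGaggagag

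Timp4 and Adamts12 hold 0 of the 7 motifs in these windows, as do 19.3% of all 32851 promoter windows. Mmp23, scarce and also called lower, holds 0 in its entries as well. Timp1 holds 1 SP1 match from -8 to -3, 1 CCAAT box and 1 C/EBP match. Mmp14 holds 2 adjoining SP1 matches from -19 to -8 and 2 CCAAT boxes, one of which shares its last base with an SP1 match. SP1 was present in 32.7% of all windows, the CCAAT box in 33.8%, C/EBP in 36.8%, the TATA box in 12.4%, AP-1 in 6.75%, the E-box in 6.02% and DR1 in 0.0335%. Over the 23 members with an entry, SP1 was present in 15 (65.2%), the CCAAT box in 5 (21.7%), C/EBP in 5 (21.7%), the TATA box in 3, AP-1 in 2, the E-box in 1 and DR1 in 0. AP-1 was found before Mmp13 and Mmp3, both of which also hold a TATA box. The motifs were picked after the values were known, a match in such a window is a string of letters rather than a binding site, and no match says nothing about a factor.

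The gelatinase Mmp2 and its membrane-bound activator Mmp14 carried most of the MMP counts and were both higher in knockdown cells. Mmp14 was counted 47099 times in control and 59397 times in knockdown cells (log2FC 0.23, 95% interval 0.21 to 0.25). Mmp2 had 34681 and 45859 counts (log2FC 0.30, 95% interval 0.28 to 0.32). Both differed by less than 1.5-fold. The only other membrane-type gene past the test was Mmp16, or MT3-MMP, with 1267 and 1978 counts. Its log2FC of 0.54 (95% interval 0.43 to 0.64) was the highest of any member that passed. Mmp15 went from 115 to 91 counts and missed the threshold (adjusted p = 0.0609, exact binomial test), and Mmp17, a GPI-anchored form, had only 20 and 19 counts.

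The other MMPs were lower, near 0 or too scarce to judge. Mmp23, an MMP held in the membrane by its N-terminal end, was counted 111 times in control and 71 times in knockdown cells (log2FC -0.75, 95% interval -1.20 to -0.31, adjusted p = 0.00183, exact binomial test). Mmp11, or stromelysin 3, had 2366 and 2107 counts (log2FC -0.27, 95% interval -0.36 to -0.19). Its share of the MMP counts was 2.28% in control cells and 1.63% in knockdown cells. Mmp19, the third most counted MMP, had 15064 and 16745 counts, and its log2FC of 0.05 (95% interval 0.01 to 0.08) passed the test at this depth. It shares 789 exon bases, 22.3% of its exons, with Tmem198b on the other strand, which had 2615 and 2829 counts. Mmp28, or epilysin, with 2273 and 2372 counts, and Mmp3, or stromelysin 1, with 684 and 728, did not pass. Gelatinase B, Mmp9, had 248 and 230 counts (log2FC -0.22, 95% interval -0.48 to 0.05). The collagenases were close to the detection limit. Mmp13 had 24 and 16 counts and Mmp8 had 5 and 12, so the log2 fold change of 1.08 for Mmp8 has a 95% interval from -0.45 to 3.01 and is no call. Mmp27 had 21 and 20 counts.

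Of 10 MMP genes that follow each other on chromosome 9 between 7272514 and 7699585, only Mmp3, Mmp13, Mmp8 and Mmp27 passed the count filter. Mmp1a, Mmp1b, Mmp7, Mmp10 and Mmp20 had 0 counts in both libraries, and Mmp12, the macrophage elastase, had 0 in control and 1 in knockdown cells. Elsewhere in the genome Mmp24 and Mmp25 had 0 counts and Mmp21 had 2 and 0. Macrophage and leukocyte markers were sparse too. Of 8 markers 4 were tested, and 3 were higher past the test and 1 lower. Over all genes tested these shares were 24.6% and 24.1%. The higher ones were Cd14, with 362 and 536 counts, and the scarce Lyz2, with 7 and 25, and Csf1r, with 3 and 13. Cd68, with 172 and 119 counts, was the lower one. Ptprc, Adgre1 and Itgam had 0 counts in both libraries. The 8 markers summed to 9.43 CPM in control and 11.2 CPM in knockdown cells. In sum the 14 MMP genes had 1802 CPM in control and 2087 CPM in knockdown cells (log2FC 0.21), although their median log2 fold change was -0.11, and -0.18 when only genes with at least 10 counts in each library were kept. The sum and the median thus differ in sign: Mmp14 and Mmp2, both higher, hold 45.3% and 33.4% of the control counts.

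**Figure D2:**
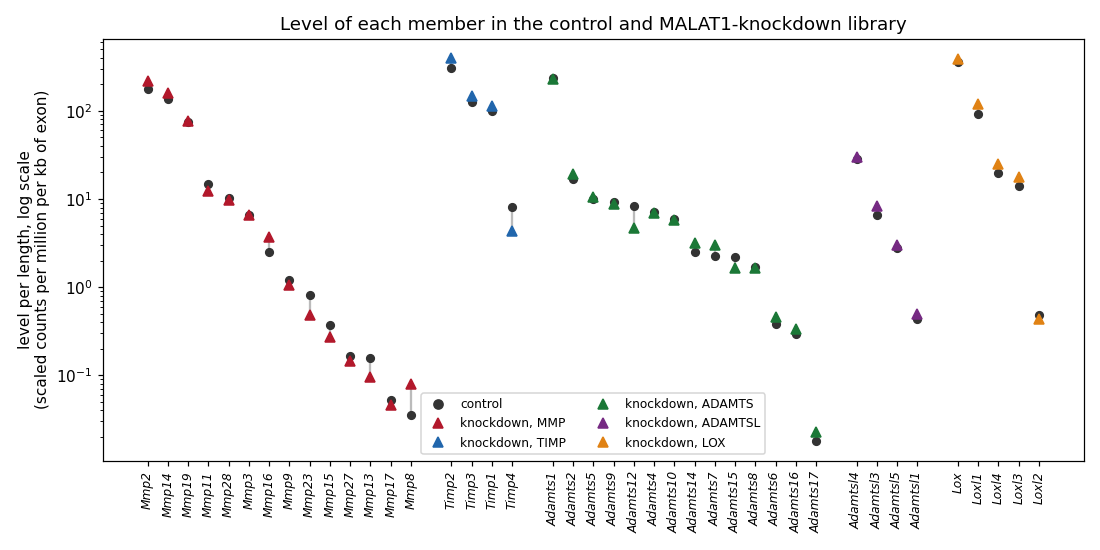
Level of each of the 41 members as scaled CPM per kilobase of exon (y axis, log scale), circles for the control library and triangles for the knockdown library. Lox, Timp2, Adamts1, Mmp2 and Mmp14 lie at the top in both libraries, and Timp4, Adamts12 and Mmp23 are the members above 0.4 in both libraries with the widest downward gap.

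In the ADAMTS family, 4 of 14 genes were higher and 4 lower past the test, 28.6% each way and close to the shares over all genes, and Adamts12 had the largest difference among those that passed. Adamts12, which like Adamts7 can cut cartilage oligomeric matrix protein, was counted 5197 times in control and 3200 times in knockdown cells. It fell to 57.2% of the control level (log2FC -0.81, 95% interval -0.87 to -0.74, adjusted p = 5.92e-139, exact binomial test). It spans bases 11064790 to 11349231 of chromosome 15, plus strand, and its share of the ADAMTS counts was 4.72% in control cells (exact 95% interval 4.60 to 4.85) and 2.79% in knockdown cells (2.70 to 2.89). Adamts7, the relative closest in function, went the other way, with 818 and 1176 counts (log2FC 0.42, 95% interval 0.29 to 0.55). Adamts7 shares 122 exon bases with Tbc1d2b on the other strand, which had 15752 and 18252 counts. The intervals of Adamts12 and Adamts7 do not overlap. Their common substrate gene Comp had 324 and 327 counts and did not pass.

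Adamts1, the leading ADAMTS gene, hardly differed between the libraries. It belongs with Adamts4, Adamts5, Adamts8, Adamts9, Adamts15 and Adamts20 to the proteoglycan-cutting branch, which includes the aggrecanases. Adamts1 had 72947 and 76076 counts (log2FC -0.05, 95% interval -0.06 to -0.03), a small difference that passes the test at this depth. It made up 66.3% of the ADAMTS counts in both libraries. Adamts5, or aggrecanase 2, lies beside Adamts1 on chromosome 16 and had 6194 and 7004 counts (log2FC 0.07, 95% interval 0.02 to 0.12). Adamts9 had 8120 and 8195 counts (log2FC -0.09). Adamts15 was the branch member with the widest difference, with 1308 and 1074 counts (log2FC -0.39, 95% interval -0.51 to -0.27). Its neighbour on chromosome 9, Adamts8, had 451 and 478 counts (log2FC -0.02, 95% interval -0.21 to 0.17), and these 2 intervals do not overlap. Adamts4, or aggrecanase 1, had 1979 and 2088 counts and did not pass. Of the proteoglycans this branch cuts, the aggrecan gene Acan had 0 counts in both libraries, and the versican gene Vcan had 205515 and 278799 counts (log2FC 0.33).

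The genes that trim procollagen I to III at the amino end were higher in knockdown cells. Adamts2 had 9150 and 11029 counts (log2FC 0.16, 95% interval 0.12 to 0.20). Adamts14 had 748 and 1014 counts (log2FC 0.33, 95% interval 0.19 to 0.47). The third procollagen propeptidase, Adamts3, had 0 and 1 counts. Among the remaining ADAMTS genes, Adamts10 had 2851 and 2963 counts, Adamts6 174 and 225, Adamts16 116 and 143, and Adamts17 8 and 11, and none passed. Adamts13, which cuts von Willebrand factor, had 3 and 1 counts, while Adamts18, Adamts19 and Adamts20 had 0 in both. The whole family summed to 1907 CPM in control and 1846 CPM in knockdown cells (log2FC -0.05).

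ADAMTS-like genes had log2 fold changes of 0.07 to 0.37, and 2 of the 4 passed the test as higher, where 24.6% of all genes tested did. Adamtsl3 was counted 2916 times in control and 4046 times in knockdown cells (log2FC 0.37, 95% interval 0.30 to 0.44). Adamtsl4, whose product binds microfibrils, had the most counts of the family, 6944 and 7857 (log2FC 0.07, 95% interval 0.02 to 0.12). Adamtsl5, with 755 and 873 counts, and Adamtsl1, with 322 and 393, did not pass. Adamtsl2 had 0 counts in both libraries.

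Of the 5 lysyl oxidase genes, 4 were higher in knockdown cells past the test, all by less than 1.5-fold. Over all genes tested 24.6% were higher, and 35.3% of those averaging at least 1000 counts, as these 4 genes do. Lox, the founding enzyme, was counted 98033 times in control and 114342 times in knockdown cells (log2FC 0.12, 95% interval 0.10 to 0.13). Loxl1, needed for elastic fibre renewal, had 17372 and 24173 counts (log2FC 0.37, 95% interval 0.34 to 0.40). Loxl4 had 4732 and 6527 counts (log2FC 0.36, 95% interval 0.30 to 0.41), and Loxl3 had 3707 and 5016 counts (log2FC 0.33, 95% interval 0.27 to 0.39). The intervals of these 3 genes overlap each other and all lie above that of Lox. Loxl3 shares 535 exon bases with Htra2 on the other strand, which had 1869 and 2227 counts. Loxl2 was scarce, with 150 and 148 counts (log2FC -0.13, 95% interval -0.46 to 0.21). The Lox share of the family's counts was 79.1% in control and 76.1% in knockdown cells, and the family summed to 2149 CPM and 2418 CPM (log2FC 0.17).

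**Figure D3:**
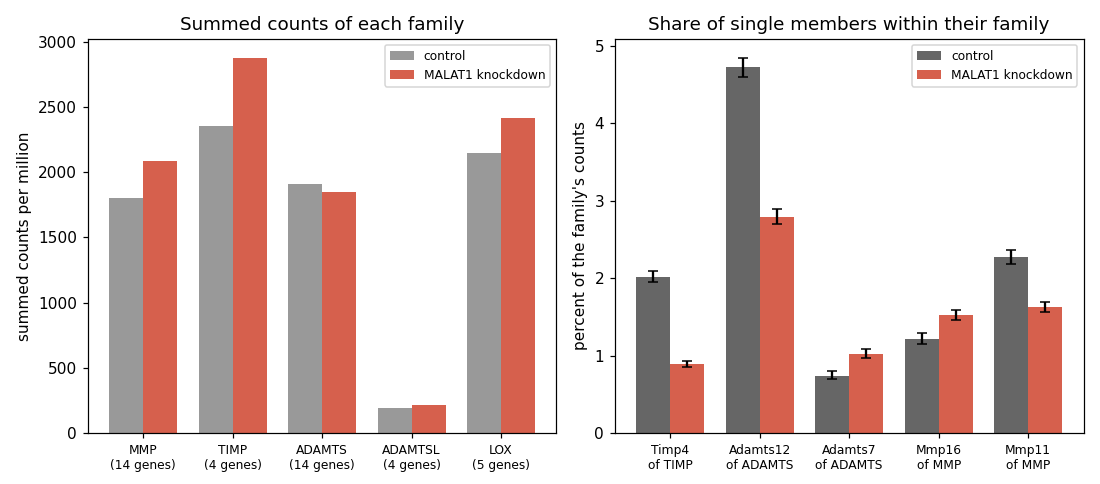
Left, summed CPM of each family in the control and knockdown library. Right, percent of the family's counts taken by single members, with exact 95% intervals as error bars for counting error. The TIMP sum was 2357 CPM in control and 2879 CPM in knockdown cells, while the Timp4 share went from 2.02% to 0.891%.

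Ranked per kilobase of exon, the most highly expressed members in control cells were Lox at 356 scaled CPM, Timp2 at 307, Adamts1 at 238, Mmp2 at 178, Mmp14 at 137 and Timp3 at 126. The order of the first 2 was reversed in knockdown cells, where Timp2 stood at 396 and Lox at 385. Mmp2 at 219 came close to Adamts1 at 231, and Mmp14 was at 160 and Timp3 at 149. Exon lengths come from GENCODE M21, which is not known to be the annotation the counts were made on.

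Genes that work with these families were counted in hand-written lists. For these lists and those below, 24.6% of all genes tested were higher past the test and 24.1% lower. Among genes averaging at least 1000 counts, 35.3% were higher and 30.2% lower. In the plasminogen system, whose protease plasmin can activate MMP precursors, 7 of 10 genes tested were higher past the test and 2 lower. Serpinb2, or plasminogen activator inhibitor 2, had 44 and 144 counts (log2FC 1.59), and Plaur, the urokinase receptor, 458 and 844 counts (log2FC 0.77). Urokinase itself, Plau, had 596 and 876 counts. In the list for procollagen and LOX processing, 6 of 9 genes were higher and 1 lower, and those named next were among the higher ones. Bmp1, the protease that activates the LOX precursor, had 14003 and 16221 counts (log2FC 0.11), and its relative Tll1 had 121 and 281 (log2FC 1.11). Pcolce, which enhances procollagen C-propeptide removal, had 34735 and 47253 counts.

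Elastic fibre and microfibril genes, whose products are LOX substrates or their partners, had a median log2 fold change of 0.27 over 16 genes tested, against -0.0031 over all genes. Of these, 11 were higher past the test, 2 lower and 0 called at 1.5-fold. Elastin, Eln, had 397 and 562 counts, and fibrillin 1, Fbn1, had 20289 and 26189. In the list for MMP activation and anchoring, 5 of 11 genes were higher and 3 lower. Furin, the convertase that cleaves the MMP14 precursor, had 7014 and 8510 counts, Reck, a membrane-anchored MMP inhibitor, 4182 and 3907, and the convertase Pcsk6 895 and 502 (log2FC -0.94). Among ADAM proteases 4 of 8 were higher and 3 lower, with Adam12 at 5155 and 3924 counts. Of 9 proteoglycan genes tested, 4 were higher and 2 lower, and the lower ones were the small collagen-binding proteoglycans Dcn, with 2247 and 1315 counts, and Lum, with 1246 and 674. Among 13 other matrix proteases and inhibitors, 7 were higher and 3 lower. Htra1, a secreted serine protease, had 59 and 28 counts (log2FC -1.17).

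Markers of the cell types in the cultures differed between the libraries as well. Of 9 fat cell markers tested, 8 were lower past the test and 0 higher, and the list summed to 6023 CPM in control and 2674 CPM in knockdown cells, with Lep at 1 and 0 counts. Of 9 preadipocyte and fibroblast markers tested, 8 were higher, with a sum of 10650 and 11890 CPM, a median log2 fold change of 0.28 and Dlk1 at 0 counts in both. All 6 cell cycle genes were higher, with sums of 607 and 903 CPM. Of 4 endothelial markers tested 2 were higher and 0 lower, and the 6 markers of the list summed to 1.40 and 1.95 CPM, with Cdh5 and Kdr at 0 in control cells. Of 4 smooth muscle markers tested 1 was higher and 0 lower. The list summed to 230 and 262 CPM over 5 genes, nearly all of it Acta2, with Cnn1 at 0 in both. Of 4 chondrocyte and osteoblast markers tested 3 were higher and 0 lower. The list summed to 154 and 211 CPM over 7 genes, of which Sox9 held 114 and 162. Acan was at 0, Sp7 had 2 and 1 counts, and Bglap had 3 and 0. The part that the make-up of the cultures plays in the differences of the members was not tested.

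**Figure D4:**
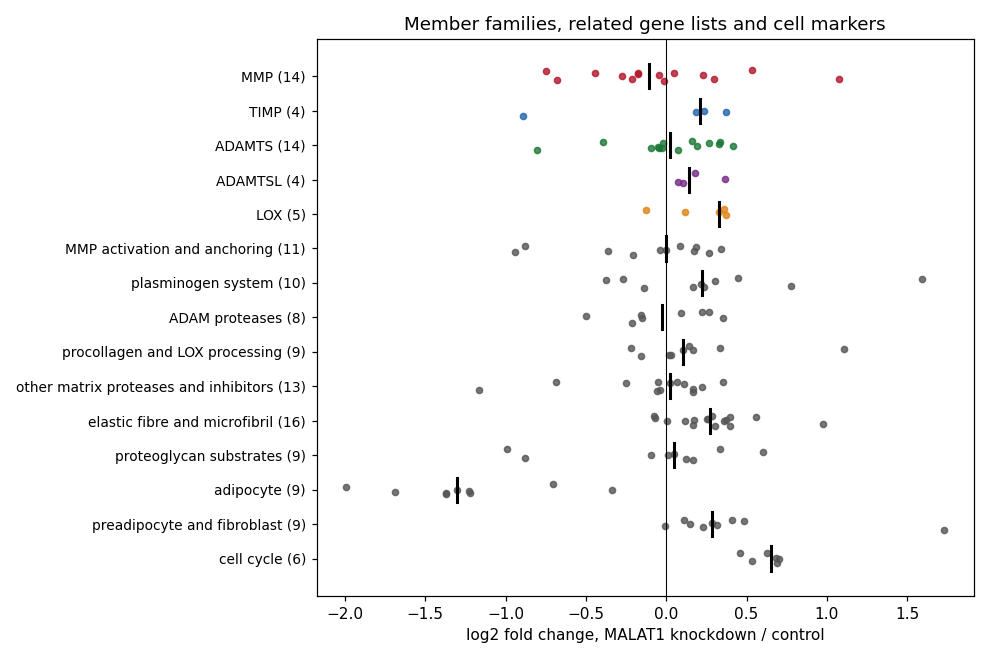
Log2 fold change (x axis) of every gene tested in each member family, in related hand-written lists and in 3 lists of cell markers, with the number of genes in parentheses and a black bar at the median. The medians of TIMP, ADAMTSL and LOX lie between 0.14 and 0.33, that of MMP at -0.11 and that of ADAMTS at 0.02. The median of the fat cell markers lies at -1.30, and Timp4 and Adamts12 stand apart from their families on the lower side.

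The calls above allow for counting error alone. With the exact test of edgeR and a preset biological coefficient of variation of 0.1 between cultures, Timp4 and Adamts12 alone kept an adjusted p under 0.05 among the 41 members. Over all 17356 genes tested, 1079 passed at that preset. With a preset of 0.2 or 0.4, 0 members passed, against 117 and 1 of all genes.

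No member lay close to the count filter. The members with the fewest counts inside it were Mmp8, with 17 counts summed, and Adamts17, with 19. The most counted outside it were Adamts13, with 4, and Mmp21, with 2. Of the 15 members under the filter, 11 had 0 counts in both libraries.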

How the data were processed

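RNA-seq of 1 control and 1 MALAT1-knockdown library was analysed. The authors deposited raw read counts per gene symbol, and the submitters' processing notes name HISAT2 and GRCm38; the counting tool, the annotation, the use of strand and the handling of multiply aligned reads are not given in the sources used here. The day of harvest comes from the study's text, the dose from the labels. Members and lists were chosen with earlier results of these data known. Named were all members, Malat1, genes overlapping a described member and some genes of the lists. No fixed rule chose the list genes: called or most abundant genes of several lists are not named. Plau, Bmp1, Pcolce, Furin, Reck, Eln, Fbn1, Adam12, Comp and Vcan were added for their known roles after their values were seen.

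Library sizes were scaled by TMM (edgeR 4.0.16, R 4.3.3). The log2 fold change used a prior count of 0.5. Since edgeR's quasi-likelihood test needs replicates, reads of each of 17356 genes with 10 or more summed counts were compared by a two-sided exact binomial test (scipy 1.17.1 under Python 3.11.15), adjusted after Benjamini and Hochberg, at an adjusted p under 0.05 and folds of 1.5 or 2. Intervals are Clopper-Pearson limits at 95%. The test was checked on simulated counts that varied by counting error alone, so the check does not cover variation between cultures. Alternatives were library totals, DESeq2 1.42.0 size factors, upper-quartile factors, other filters, prior counts of 0.125 and 2, edgeR's exact test with preset variation, and unadjusted p; counts divided by 4 and edgeR's test with unadjusted p were added after seeing the data. Lists carry no test of their own. Some single genes are not reported here.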

Additional observations from a re-analysis of the deposited data

How the results depend on the processing

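Among the alternatives run, the directions of the 24 members past the test did not reverse, but these settings could hardly reverse them. The other filters and tests reused the same log2 fold changes, and the prior counts changed them little. The scalings moved them by at most 0.022, while the smallest of the 24 was -0.046, for Adamts1. With library totals, DESeq2 size factors, upper-quartile factors, either other filter on counts or either other prior count, all 24 stayed past the test, and 3 members were at least 1.5-fold lower. The filter of at least 10 counts in each library left 39 members, and with it the median log2 fold change was -0.18 for MMP instead of -0.11 and turned from 0.024 to -0.023 for ADAMTS. The count of members at least 1.5-fold lower was 0 with edgeR's exact test at a preset variation of 0.2 and 0 at 0.4, and 1 (Timp4) at 0.2 with unadjusted p, a setting added after seeing the data. Over all 17356 genes those presets called 117 and 1 with adjusted p and 1153 and 343 with unadjusted p, without a fold threshold. At a preset of 0.1, 2 members were at least 1.5-fold lower, Timp4 and Adamts12, and Mmp23 was lost. That preset called 1079 of all genes with adjusted p, without a fold threshold. On counts divided by 4, also added later, 18 members passed, and Mmp23, Mmp19, Adamts5, Adamts9, Adamts14 and Adamtsl4 did not.

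The family sums are precise enough that scaling moves them. With library totals the log2 fold change of the sum was 0.23 for MMP, 0.31 for TIMP, -0.025 for ADAMTS, 0.19 for LOX and 0.11 for MMP and ADAMTS together, and the last was 0.094 with upper-quartile factors. Library totals moved the median of all genes by 0.022. No leave-one-out or paired analysis was possible because each group has 1 library.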
